A study of Mus musculus with 4 samples.

Results

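The 5 genes described here are Nos3, which encodes endothelial nitric oxide synthase, and 4 genes treated here as its partners: Nostrin, Cav1, Ddah1 and Ddah2. They were chosen by name from 11049 genes listed in all 3 library tables. Their UMIs (unique molecular identifiers, which count captured transcripts) were summed in endothelial cells and in all other cells of 4 mouse kidney libraries. A cell was endothelial where Pecam1, Cdh5, Kdr and Tie1 together gave at least 3 UMIs and at least 12 per 10000 UMIs of the cell. Endothelial cells were then split by whether they held an Igfbp3 UMI. The rule found 2885 endothelial cells among 10535, of which 1605 held an Igfbp3 UMI.

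All mice were C57BL/6J aged 10-14 weeks, and the groups were angiotensin II-induced hypertension (A2 HTN), its saline control, salt sensitive hypertension (SS HTN) and its normal diet control. Kidneys of a group were pooled and dissociated, and cells were taken with beads against CD31 and then against podoplanin, so each group is 1 library from pooled animals, and no source used here gives the number of mice per pool. The 2 control libraries were deposited in 1 table and told apart by the ending of the cell barcode. No source used here ties an ending to saline or to normal diet, so they are called control library 1 and control library 2. No labelled group is a genetic model.

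Nitric oxide synthase makes nitric oxide from arginine, with tetrahydrobiopterin as cofactor, and nitric oxide relaxes vascular smooth muscle through soluble guanylate cyclase. In endothelial cells the enzyme sits partly in caveolae, where caveolin-1, the product of Cav1, holds it inactive until calcium-calmodulin binds. Nostrin is an adaptor that takes part in moving the enzyme off the plasma membrane. Ddah1 and Ddah2 belong to the dimethylarginine dimethylaminohydrolase family, named for the breakdown of asymmetric methylarginines, which are inhibitors of the enzyme.

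Endothelial cells were unevenly spread over the libraries. They numbered 1223 of 2837 cells in A2 HTN, 1517 of 3284 in SS HTN, 19 of 2406 in control library 1 and 126 of 2008 in control library 2. Their median depth was 4792, 2371, 1995 and 2811 UMIs per cell in that order, and the endothelial sum of control library 1 held 34358 UMIs of the shared genes against 5517870 in A2 HTN. All 12 endothelial markers, which include the 4 genes of the rule, were detected in the endothelial cells of both hypertension libraries and of control library 2. In those of control library 1, 11 were detected and Cldn5 gave no UMI. None of the 5 lymphocyte markers has a row in the tables. Tubule markers summed to 8062 CPM (UMIs scaled to a common total) in the 19 endothelial cells of control library 1, against 437 to 863 CPM in the endothelial cells of the other 3 libraries. Only 7 cell barcodes were shared over all pairs of libraries. Of the 9 lymphatic markers, Lyve1, Mmrn1, Ccl21a and Reln had no row or no UMI in the endothelial cells of any library. Pdpn, the podoplanin gene of the labelled selection, gave UMIs there in SS HTN alone, and it has no row for A2 HTN. Prox1, Flt4, Itga9 and Nrp2 were detected there in both hypertension libraries. Taken over all UMIs of a class, the lymphatic list summed to 433 CPM in endothelial and 246 in other cells of A2 HTN. In SS HTN the sums were 376 and 223 CPM. Levels below are CPM of the shared genes, intervals are 95% Poisson or binomial intervals that cover counting error only, and ratios between libraries or classes are log2 ratios of CPM + 5, with the interval of the ratio taken without the added 5.

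Nos3, Nostrin, Cav1 and Ddah2 were higher in endothelial cells than in all other cells, and Ddah1 was lower. Over the 4 libraries the log2 difference was 2.47 for Nos3, 1.96 for Nostrin, 2.76 for Cav1, 2.91 for Ddah2 and -2.72 for Ddah1 (edgeR's quasi-likelihood test blocked on library, 4 libraries). Ddah1 and Ddah2, which belong to the same gene family, lay on opposite sides. Of 11045 genes tested, 33.6% passed as higher and 36.8% as lower in endothelial cells, so that passing was common in this comparison and the sizes say more than the calls.

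Nos3 (chromosome 5, 24364810 to 24384474, + strand, GRCm38, GENCODE M21) gave 79.7 CPM in the endothelial cells of A2 HTN (440 UMIs), 89.6 in SS HTN (355 UMIs), 116 in control library 1 (4 UMIs) and 43.7 in control library 2 (15 UMIs). In all other cells it gave 23.6, 19.6, 9.85 and 4.38 CPM in that order. The endothelial level was above that of the other cells in all 4 libraries (standard error of the log2 difference 0.25, adjusted p = 1.64e-06 in edgeR's test). In control library 1 the 4 endothelial UMIs came from 2 of 19 cells, with 3 in a single cell. Most cells with the transcript held a single copy: 79.0% of the A2 HTN and 80.9% of the SS HTN endothelial cells with a Nos3 UMI had exactly 1. A Nos3 UMI was found in 28.5% (25.9 to 31.1) of A2 HTN and 18.3% (16.4 to 20.4) of SS HTN endothelial cells, against 2.48% and 2.49% of their other cells, whose median depth was 863 and 1005 UMIs. After each cell was thinned to 1000 UMIs the endothelial shares were 7.45% and 7.10%, and those of the other cells 2.08% and 2.04%. Nos3 overlaps Atg9b and Gm15587 on the opposite strand. Cav1 overlaps Gm15581 on the opposite strand and Ddah1 overlaps the pseudogene Rpl36a-ps2 on the same strand, so reads there could be split, and no source used here says whether the counting used strand.

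Nostrin (chromosome 2, 69135800 to 69189330, + strand) gave 108 CPM in the endothelial cells of A2 HTN, 113 in SS HTN, 58.2 in control library 1 (2 UMIs) and 181 in control library 2 (62 UMIs). The other cells gave 43.9, 39.6, 31 and 25.5 CPM. The endothelial level was the higher one in the 3 libraries with more than 3 endothelial UMIs, while the 2 UMIs of control library 1 set no level (log2 ratio 0.81, -2.16 to 2.81). The standard error over the 4 libraries was 0.25 and the adjusted p 1.48e-05 in edgeR's test.

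Cav1 (chromosome 6, 17306335 to 17341452, + strand) gave 200.3 CPM in the endothelial cells of A2 HTN (1105 UMIs), 220.4 in SS HTN (873 UMIs), 58.2 in control library 1 (2 UMIs) and 134 in control library 2 (46 UMIs). Its levels in the other cells were 42.8, 37.6, 9.49 and 18.2 CPM, below the endothelial level in the hypertension libraries and in control library 2. In control library 1 the 2 endothelial UMIs set no level (2.13, -0.50 to 4.62). The standard error was 0.20 and the adjusted p 3.13e-07 in edgeR's test. A Cav1 UMI was present in 49.1% (46.2 to 51.9) of A2 HTN and 36.2% (33.8 to 38.7) of SS HTN endothelial cells, and in 16.5% and 17.7% after thinning. In control library 2 the shares were 24.6% (17.4 to 33.1) and, thinned, 10.9% (5.95 to 18.0).

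**Figure D1:**
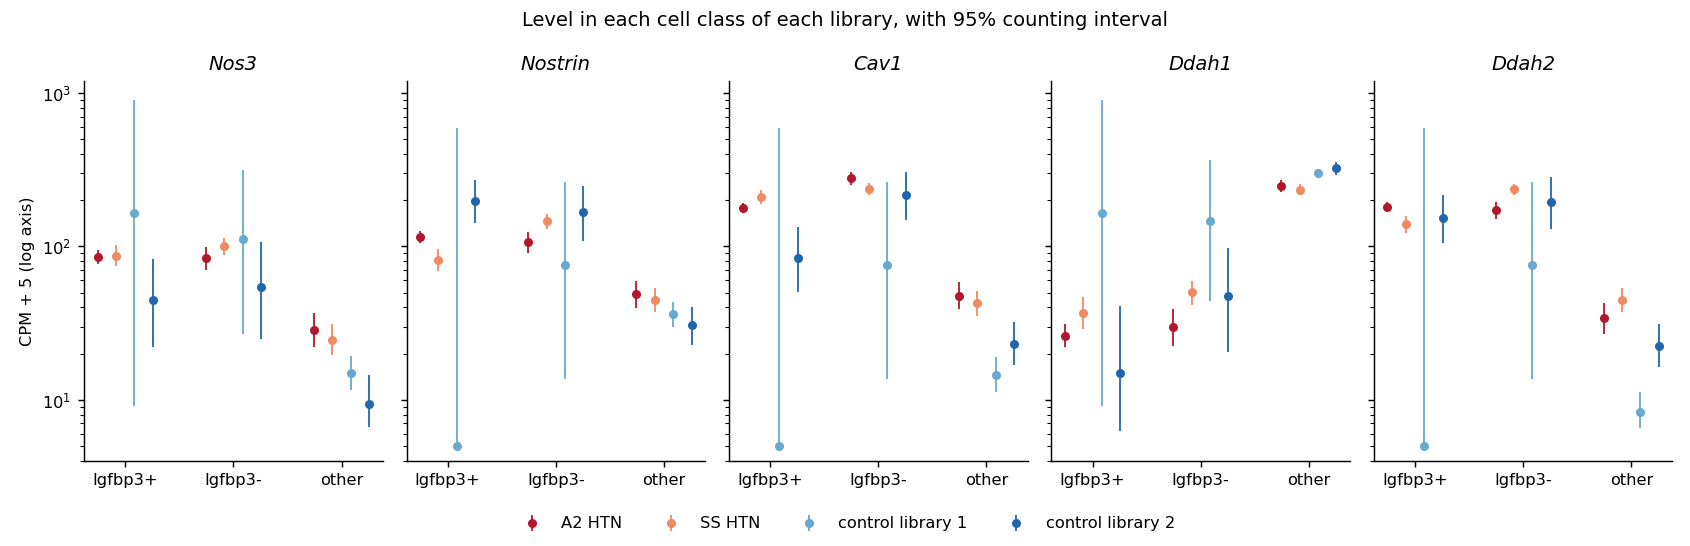
Level of each gene (CPM + 5, log axis) in Igfbp3-positive and Igfbp3-negative endothelial cells and in all other cells, 1 point per library with its 95% Poisson interval. Nos3, Nostrin, Cav1 and Ddah2 fall towards the other cells and Ddah1 rises to 229 to 318 CPM there, and the few cells of control library 1 give intervals wider than most differences.

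Ddah1 (chromosome 3, 145758675 to 145894277, + strand) showed the reverse order. It gave 22.1 CPM in the endothelial cells of A2 HTN (122 UMIs), 39.4 in SS HTN (156 UMIs), 146 in control library 1 (5 UMIs) and 23.3 in control library 2 (8 UMIs). In all other cells it gave 242, 229, 294 and 318 CPM. The level in the other cells was the higher one in every library, although in control library 1 the interval of the ratio included 0 (-0.99, -2.64 to 0.21), with a standard error of 0.27 and an adjusted p of 1.62e-06 in edgeR's test. Tubule markers in endothelial cells were set beside these values. In A2 HTN the endothelial level of Ddah1 was 9.13% of that in the other cells, while the summed tubule markers stood at 3.63%. The corresponding values were 17.2% and 6.50% in SS HTN, 49.4% and 52.8% in control library 1, and 7.34% and 5.44% in control library 2. The Ddah1 share was above that of the tubule markers in both hypertension libraries and in control library 2, and not in control library 1. In control library 2 it rests on 8 endothelial UMIs (log2 interval -4.99 to -2.78), and that gap lay within counting error. The part of free RNA in these values was not tested.

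Ddah2 (chromosome 17, 35059035 to 35062095, + strand) gave 174 CPM in the endothelial cells of A2 HTN (958 UMIs), 189 in SS HTN (750 UMIs), 58.2 in control library 1 (2 UMIs) and 166 in control library 2 (57 UMIs). The other cells gave 28.9, 39.6, 3.28 and 17.5 CPM. The endothelial level was the higher one in each library (in control library 1 from 2 against 9 UMIs, 2.93, 0.90 to 6.42), with a standard error of 0.22 and an adjusted p of 3.68e-07 in edgeR's test. Endothelial cells held 94.7% (93.1 to 96.0) of all Ddah2 UMIs in A2 HTN and 21.3% (18.0 to 24.8) of all Ddah1 UMIs, beside 74.7% of the UMIs of all shared genes. In SS HTN they held 88.5% of the Ddah2 and 21.8% of the Ddah1 UMIs, beside 61.8% of all UMIs.

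The upstream windows of this pair are shown because the genes lay on opposite sides of the endothelial comparison. Each runs from 230 to 31 bases before the annotated start, from RefSeq on GRCm38.p6, + strand, 5′ to 3′, and overlaps no exon. RefSeq entries matched 4 of the 5 genes, Nos3 being the one without. Capitals mark a match to one of 4 motifs searched on both strands: the GC box GGGCGG, the ETS core CCGGAA, the GATA core AGATAA and TATAAA, which did not overlap one another in the window that has a match.
Ddah1, chr3:145758462-145758661: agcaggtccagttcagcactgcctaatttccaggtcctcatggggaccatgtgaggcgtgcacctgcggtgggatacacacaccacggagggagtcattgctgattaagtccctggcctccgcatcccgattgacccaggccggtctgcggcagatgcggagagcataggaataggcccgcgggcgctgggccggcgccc
Ddah2, chr17:35058805-35059004: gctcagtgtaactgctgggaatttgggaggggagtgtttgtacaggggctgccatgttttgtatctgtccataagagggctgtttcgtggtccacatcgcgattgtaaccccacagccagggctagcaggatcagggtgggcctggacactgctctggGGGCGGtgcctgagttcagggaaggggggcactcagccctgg
The Ddah2 window holds 1 GC box, and these letters are not in the Ddah1 window. A GC box is present in 27.7% of 32851 windows of the same length, CCGGAA in 8.92%, AGATAA in 8.22% and TATAAA in 8.92%. The Ddah1 window has 63.5% G and C bases and the Ddah2 window 59.0%, beside a median of 52.0% over all windows.

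Genes of the surrounding pathway were counted from a list of 72 genes, of which 59 could be tested between endothelial and other cells. By the same edgeR test 30 rose and 19 fell in endothelial cells, beside the 33.6% and 36.8% of all genes given above, and their median log2 difference was 0.52 against -0.09 over all genes. The 8 largest differences were those of Agxt2 (-4.07), Src (-3.93), Ramp2 (3.87), Gucy1a2 (-3.83), Kng2 (-3.65), Klf2 (3.57), Cavin3 (3.43) and S1pr1 (3.36), each with an adjusted p of at most 4.78e-06. Ramp2 is a co-receptor for adrenomedullin, Klf2 a flow-responsive transcription factor, Cavin3 a caveolar coat protein and S1pr1 a sphingosine-1-phosphate receptor. Agxt2 is a mitochondrial aminotransferase that also metabolises methylarginines, Gucy1a2 is a subunit of soluble guanylate cyclase, Src a tyrosine kinase and Kng2 a kininogen. Among the caveolar and enzyme-partner genes 14 of 25 rose and 5 fell. Of the cofactor and substrate genes 4 of 9 rose and 3 fell, of methylarginine handling 2 of 6 rose and 3 fell, and of upstream inputs 7 of 9 rose and 2 fell. Of the targets of nitric oxide 3 of 10 rose and 6 fell. The cofactor and substrate genes, chosen for naming after their values were seen, divided by step: Gch1, the first enzyme of tetrahydrobiopterin synthesis, was higher by 2.70, whereas Ass1 and Asl, which regenerate arginine from citrulline, were lower (-2.84 and -2.73, adjusted p at most 1.7e-06 for all 3 in edgeR's test). With library totals in place of TMM scaling, the median of all genes moved from -0.09 to -0.35, and all 5 members kept their direction and passed.

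Between Igfbp3-positive and Igfbp3-negative endothelial cells, Cav1 was the only one of the 5 genes to pass, and it was lower in the positive cells. Igfbp3 encodes a secreted binding protein of insulin-like growth factors. Cav1 gave 174 CPM in the positive and 274 in the negative cells of A2 HTN, 206 and 232 in SS HTN, and 79.4 (16 UMIs) and 212 (30 UMIs) in control library 2. Control library 1 gave 0 and 2 UMIs, which sets no level. The positive cells had the lower level in all 3 libraries with a usable count, with log2 ratios of -0.64 (-0.83 to -0.47), -0.17 (-0.37 to 0.03) and -1.36 (-2.39 to -0.49). The fitted difference was -0.43 (standard error 0.12, adjusted p = 0.0161 in edgeR's test over 4 libraries), in a comparison where 2.26% of 9518 genes passed as higher and 3.24% as lower. The call was lost with DESeq2 (adjusted p = 0.808), after thinning (0.667), under the looser endothelial rule (0.0796), without A2 HTN (0.775) and without control library 2 (0.118), while the direction held in every one of these settings. Of all genes 215 were higher and 308 lower, against 24 and 60 with DESeq2 and 180 and 409 without TMM scaling.

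No difference between these classes was detectable for Nos3. It gave 80.0 CPM in positive and 78.9 in negative cells of A2 HTN, 82.0 and 95.5 in SS HTN, and 39.7 and 49.4 in control library 2. The fitted log2 difference was -0.05 with a standard error of 0.14 (adjusted p = 0.955 in edgeR's test). Ddah1 was lower in the positive cells of the same 3 libraries, at 21.2 against 24.7, 32.0 against 45.1 and 9.93 against 42.4 CPM. It did not pass (-0.38, standard error 0.22, adjusted p = 0.478) and passed under the looser endothelial rule alone (-0.91, adjusted p = 0.000359, edgeR's test in both). The cells added by the looser rule gave 183 CPM of Ddah1 in A2 HTN and 149 in SS HTN, and their part in that call was not tested.

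Nostrin and Ddah2 were lower in the Igfbp3-positive cells of SS HTN beyond counting error, and no such difference was detectable in A2 HTN. In SS HTN Nostrin gave 76.7 CPM in positive and 141 in negative cells, a log2 ratio of -0.83 (-1.18 to -0.58), and Ddah2 gave 135 and 231, a ratio of -0.76 (-1.01 to -0.55). In A2 HTN the values were 111 and 102 for Nostrin, a ratio of 0.12 (-0.15 to 0.40), and 176 and 167 for Ddah2, a ratio of 0.07 (-0.14 to 0.29). Control library 2 gave 194 and 162 for Nostrin and 149 and 191 for Ddah2, with both intervals crossing 0. Over the 4 libraries neither passed (adjusted p = 0.441 and 0.227 in edgeR's test), and the difference between A2 HTN and SS HTN was not tested, since each is 1 library. The sign of this ratio was opposite in the 2 libraries for Nos3, Nostrin and Ddah2, as it was for 39.3% of all genes with at least 20 endothelial UMIs in each.

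**Figure D2:**
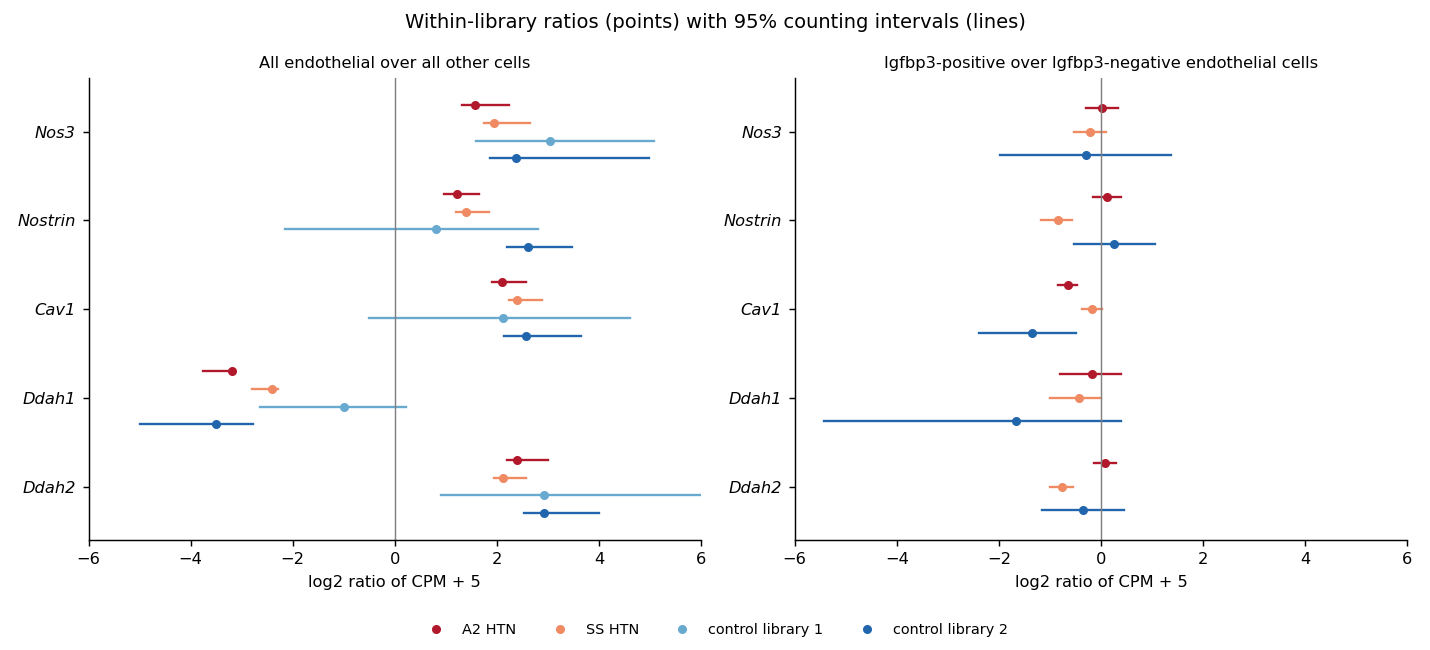
Log2 ratios of CPM + 5 within each library (points) for endothelial over all other cells (left) and Igfbp3-positive over Igfbp3-negative endothelial cells (right), with 95% counting intervals of the ratio without the added 5 (lines, which end at the axis limits); control library 1 is left out on the right for its 4 Igfbp3-positive cells. On the left only Ddah1 lies below 0, and on the right Nostrin and Ddah2 of SS HTN stand at -0.83 and -0.76 while those of A2 HTN lie at 0.12 and 0.07.

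When endothelial cells were grouped by vessel markers, levels of the 5 genes differed in some subsets and libraries and not in others. A glomerular-like and an arterial-like subset were set apart, by a rule added after the data were seen, as cells in which the glomerular list (Ehd3, Pi16, Plat, Sost, Gata5, Tbx3) or the arterial list (Gja5, Gja4, Sox17, Fbln5, Bmx, Cxcl12, Hey1) gave at least 3 UMIs and at least 30 per 10000. Because the rule was set with values in view, the comparisons below are descriptions with counting intervals and no test. The share of all genes with an interval that excludes 0 was not computed for these subsets. The first rule, 2 UMIs of a list with no density limit, took in 735 of the 1223 A2 HTN endothelial cells as glomerular and 569 as arterial. Under it Nostrin gave log2 ratios to the rest of 0.12 (-0.13 to 0.37) in glomerular cells of A2 HTN and 0.88 (0.63 to 1.22) in those of SS HTN, and 0.13 and -0.18 in arterial cells, both intervals including 0, so the Nostrin values below depend on the density limit. The glomerular-like cells numbered 54 in A2 HTN, 188 in SS HTN, 3 in control library 1 and 15 in control library 2. Plvap, a capillary diaphragm protein that mature glomerular endothelium lacks and that the rule did not use, gave 472 CPM in the glomerular-like cells of A2 HTN and 2976 in the rest. In SS HTN it gave 28.3 and 1623 CPM and in control library 2 24.5 and 2832 CPM. The podocyte list was at 826 against 976 CPM, 1091 against 1062, and 1202 against 1006 in these libraries, and the mural list at 135 against 24.0 CPM in A2 HTN and 30.2 against 36.4 in SS HTN. Their part in the values below was not tested.

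Nostrin was high in glomerular-like cells. It gave 254 CPM (49 UMIs) against 103 in the rest of the A2 HTN endothelial cells, 361 (191 UMIs) against 74.6 in SS HTN, and 270 (11 UMIs) against 169 in control library 2. The log2 ratios were 1.27 (0.85 to 1.73), 2.20 (2.0 to 2.55) and 0.66 (-0.41 to 1.64), so the difference exceeded counting error in both hypertension libraries. Ddah2 was high in the same cells, at 286 against 170 CPM in A2 HTN, 361 against 163 in SS HTN and 343 against 142 in control library 2. Its ratios were 0.74 (0.33 to 1.15), 1.12 (0.90 to 1.39) and 1.24 (0.29 to 2.17), all above 0. Cav1 was low in the glomerular-like cells of SS HTN, at 108 against 238 CPM (-1.11, -1.56 to -0.76), but gave 177 against 201 in A2 HTN and 172 against 129 in control library 2, where both intervals crossed 0. Nos3 gave 62.3 against 80.4 CPM, 79.3 against 91.2 and 73.6 against 39.7, and no difference was detectable at these counts of 12, 42 and 3 UMIs. Ddah1 gave 20.8 against 22.2 CPM in A2 HTN and 22.7 against 42.0 in SS HTN, where the ratio was -0.76 (-1.88 to -0.04). With the density limit at 20 or 50 per 10000, the Nostrin ratio was 0.89 and 1.75 in A2 HTN and 2.05 and 1.88 in SS HTN.

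The arterial-like cells, 47 in A2 HTN and 116 in SS HTN, are described next. Cav1 gave 413 CPM against 193 in the rest of the A2 HTN endothelial cells and 397 against 202 in SS HTN, with log2 ratios of 1.08 (0.75 to 1.43) and 0.95 (0.70 to 1.23). Nos3 gave 175 (64 UMIs) against 80.9 CPM in SS HTN, a ratio of 1.07 (0.70 to 1.51), and 118 (22 UMIs) against 78.4 in A2 HTN, where the interval crossed 0 (-0.10 to 1.21). Nostrin was low, at 42.9 against 110 CPM in A2 HTN and 41.1 against 120.2 in SS HTN, with ratios of -1.27 (-2.58 to -0.38) and -1.44 (-2.40 to -0.81). Ddah1, low in endothelial cells as a class, gave 59.0 against 20.8 CPM in A2 HTN (1.31, 0.46 to 2.40) and 54.7 against 37.8 in SS HTN (0.48, -0.22 to 1.22). Ddah2 gave 123 against 175 and 164 against 192 CPM, both intervals crossing 0. With the limit at 20 or 50 per 10000 the Nos3 ratio in A2 HTN was 0.18 (-0.35 to 0.69) and 1.55 (0.47 to 2.55), and the Ddah2 ratio in SS HTN -0.16 (-0.47 to 0.14) and -0.99 (-2.04 to -0.18), so whether these intervals included 0 depended on the limit. Mural markers, which mark the smooth muscle next to arterial endothelium, were at 204 against 21.8 CPM in the arterial-like cells of A2 HTN and at 30.1 against 36.2 in SS HTN, and their part was not tested. No arterial-like cell was found in either control library, whose table lists 4 of the 7 arterial genes and so made the rule harder to meet, and at 20 per 10000 control library 2 had 4. The glomerular list has 4 of its 6 genes there.

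The same rule applied to the other vessel lists gave values that overlap with these. High Cav1 was not limited to arterial-like cells: it gave 407 against 214 CPM in 34 venous-list cells of SS HTN (0.91, 0.48 to 1.34). In descending vasa recta-list cells it gave 530 against 217 CPM in SS HTN (11 cells) and 376 against 199 in A2 HTN (9 cells). Nos3 gave 185 against 88.7 and 188 against 79.0 CPM in those cells (7 UMIs each). In the venous-list cells of SS HTN it gave 138 against 88.1 CPM, and each of these Nos3 intervals included 0. Under the first rule its log2 ratios in vasa recta-list cells were 0.78 (0.34 to 1.26) in SS HTN and 0.67 (0.12 to 1.23) in A2 HTN. In venous-list cells they were 1.05 (0.68 to 1.49) and -0.24 (-0.69 to 0.15). Ddah1 gave 114 against 37.0 CPM in the venous-list cells of SS HTN (1.5, 0.72 to 2.42), above its arterial-like level, and Ddah2 gave 106 against 192 (-0.83, -1.78 to -0.08). In the 11 venous-list cells of A2 HTN all 5 intervals included 0. The peritubular capillary list includes Igfbp3, so its cells are not independent of the Igfbp3 classes. They numbered 945 in A2 HTN, of which 778 held an Igfbp3 UMI, and 730 in SS HTN, of which 480 did. Their Cav1 was lower than in the rest (182 against 275 and 186 against 247 CPM), which overlaps with the Cav1 difference between the Igfbp3 classes. The part of Igfbp3 in these values was not tested. Nostrin was also lower in the peritubular capillary-list cells (101 against 137 and 71.1 against 146 CPM). Nos3 there gave 78.8 against 83.4 CPM in A2 HTN, with an interval including 0, and 56.8 against 115 in SS HTN (-0.96, -1.37 to -0.68).

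**Figure D3:**
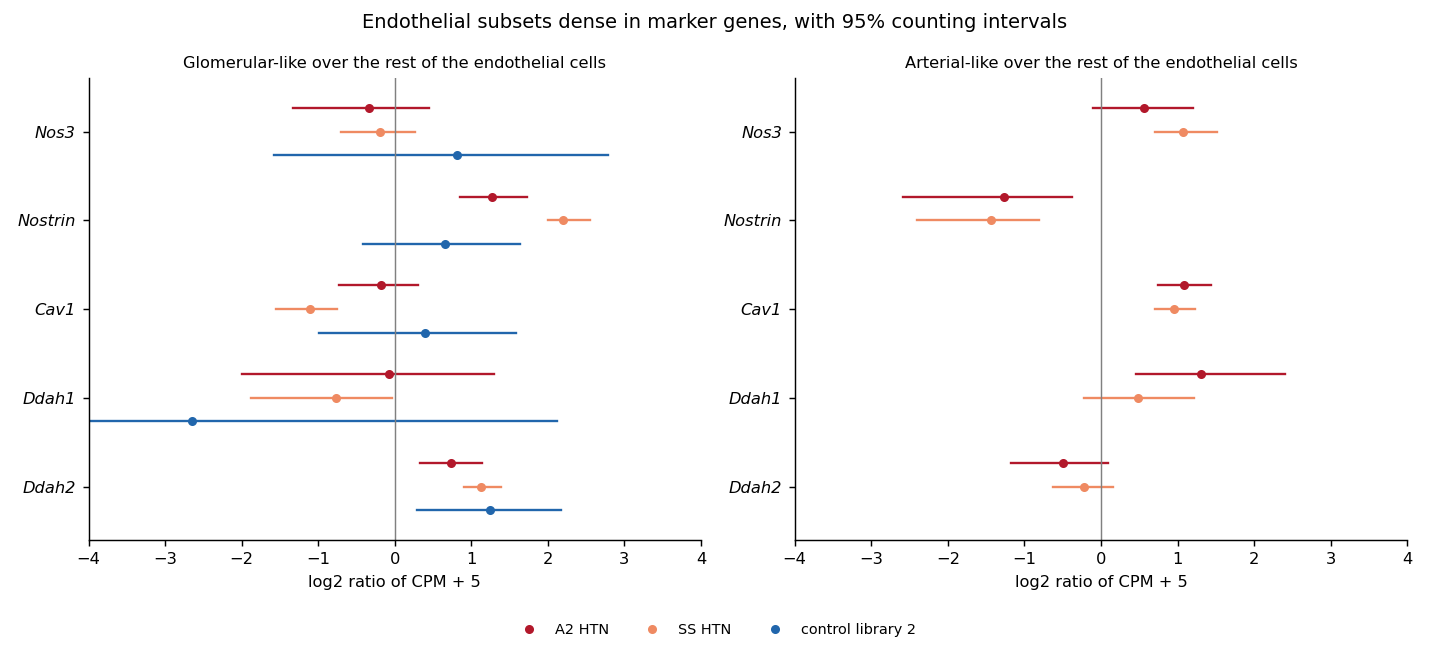
Log2 ratios of CPM + 5 of glomerular-like (left) and arterial-like (right) endothelial cells over the rest of the endothelial cells of the same library, with 95% counting intervals of the ratio without the added 5 (lines, which end at the axis limits). Nostrin lies at 1.27 and 2.20 in the glomerular-like cells of A2 HTN and SS HTN and at -1.27 and -1.44 in the arterial-like cells, and Cav1 lies at 1.08 and 0.95 in the arterial-like cells.

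The glomerular-like cells were mostly Igfbp3-negative and made up unequal shares of the classes. They were 20.2% of the Igfbp3-negative and 2.41% of the Igfbp3-positive endothelial cells in SS HTN, 12.6% and 1.04% in A2 HTN, and 26.3% and 0% in control library 2, where 0 of 69 cells allows a share of up to 4.35%. With these cells left out, Nostrin gave 73.9 CPM in the Igfbp3-positive and 75.3 in the Igfbp3-negative cells of SS HTN, a log2 ratio of -0.02 (-0.39 to 0.34) in place of -0.83. The Ddah2 ratio moved from -0.76 to -0.51 (-0.78 to -0.28) and remained below 0. In A2 HTN the Nostrin ratio without them was 0.43 (0.14 to 0.77) and that of Ddah2 0.19 (-0.03 to 0.43). In control library 2 the Nostrin ratio moved from 0.25 to 0.68 (-0.26 to 1.77) and that of Ddah2 from -0.35 to 0.20 (-0.77 to 1.27). Because the cells left out had high Nostrin and Ddah2 and were mostly Igfbp3-negative, leaving them out raises these ratios by construction. Their part in the SS HTN differences was not tested. The Cav1 ratio was -0.67 (-0.87 to -0.50) in A2 HTN, -0.33 (-0.55 to -0.14) in SS HTN and -1.47 (-2.54 to -0.54) in control library 2 without them, below 0 beyond counting error in all 3 libraries.

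**Figure D4:**
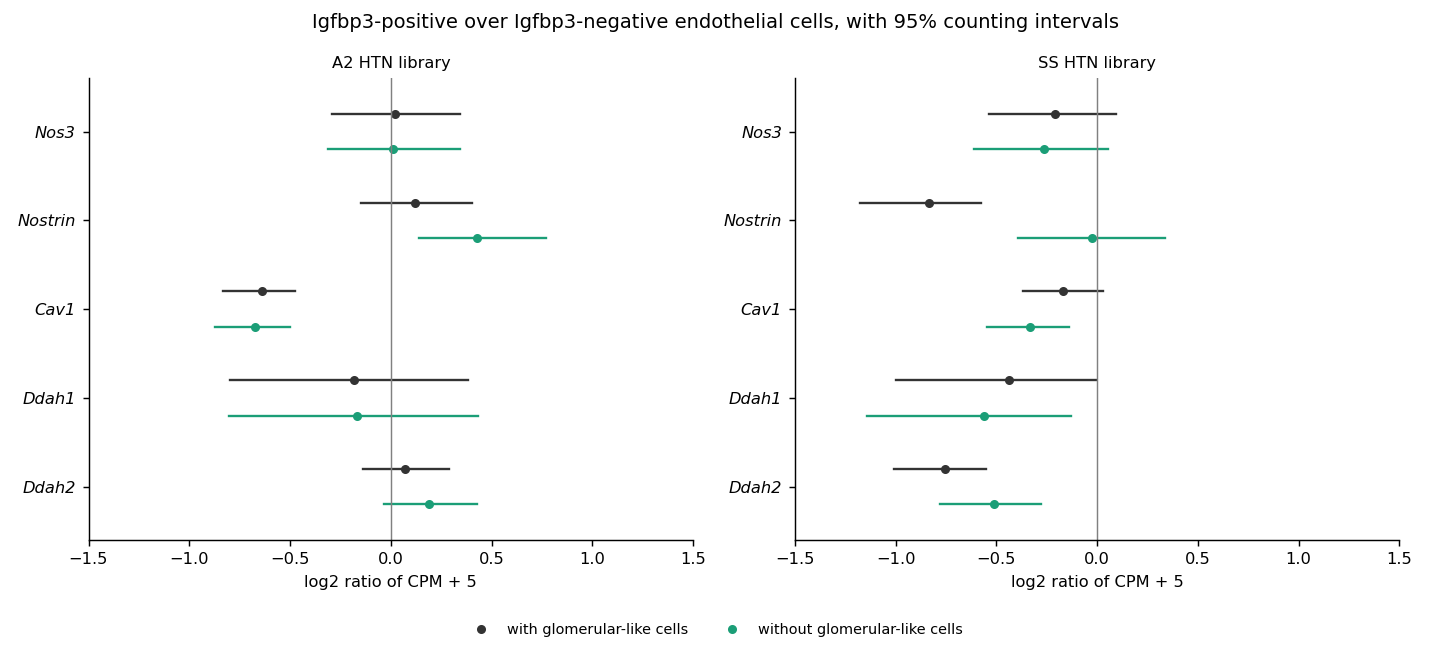
Log2 ratios of CPM + 5 of Igfbp3-positive over Igfbp3-negative endothelial cells with and without the glomerular-like cells, in the A2 HTN (left) and SS HTN (right) libraries, with 95% counting intervals of the ratio without the added 5. In SS HTN the Nostrin ratio moves from -0.83 to -0.02, and the Cav1 ratio stays below 0 in both libraries. The cells left out had high Nostrin and were mostly Igfbp3-negative, so the Nostrin ratio rises by construction.

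No difference between the hypertension and the control libraries passed for any of the 5 genes in endothelial cells. In all endothelial cells the fitted log2 difference, 2 hypertension against 2 control libraries, was 0.73 for Nos3 (standard error 0.43), -0.37 for Nostrin (0.45), 0.94 for Cav1 (0.47), -0.28 for Ddah1 (0.66) and 0.47 for Ddah2 (0.48). The adjusted p was 0.9999 for each of the 5. Of 10254 genes 0 passed edgeR's test (0%), while 234 had an unadjusted p at or under 0.05, and DESeq2 also passed 0 with 241 at that level. In Igfbp3-positive cells 2 of 8794 genes passed (0.0227%), Epha6 and Tspan8, and in Igfbp3-negative cells 0 of 9068 (0%, 420 at an unadjusted p at or under 0.05, and 0 and 239 with DESeq2). The difference of the hypertension effect between the Igfbp3 classes passed for 0 of 9518 genes (0%, 369 at that unadjusted level, and 0 and 200 with DESeq2). The control side rests on 19 and 126 endothelial cells, which limits what could be detected. No gene of the pathway list passed in any of these 4 fits.

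Against control library 2, the control with more endothelial cells, counts in all endothelial cells differed beyond counting error for 3 of the 5 genes. Of all genes with at least 20 UMIs in the pair of libraries, 10.7% differed so in A2 HTN and 15% in SS HTN, and 4.95% did in both and in the same direction, with the control counts shared. Nos3 was higher, with log2 ratios of 0.80 (0.13 to 1.72) in A2 HTN and 0.96 (0.29 to 1.89) in SS HTN. Cav1 was also higher, by 0.56 (0.15 to 1.04) and 0.70 (0.29 to 1.18). Nostrin was lower, at -0.71 (-1.12 to -0.34) and -0.66 (-1.06 to -0.27). Both ratios of a gene share the same control counts, 15 UMIs for Nos3, 46 for Cav1 and 62 for Nostrin, and each compares 2 libraries with no replicate, so that they describe these libraries. Leaving out the glomerular-like cells, the Nostrin ratios were -0.69 (-1.13 to -0.27) and -1.13 (-1.62 to -0.71). Against control library 1, with 2 to 5 UMIs per gene, Nos3 gave -0.52 (-1.91 to 1.34) and -0.36 (-1.75 to 1.51) and Nostrin 0.84 (-0.96 to 3.94) and 0.90 (-0.91 to 4.01), signs opposite to those against control library 2 and all with intervals including 0. Ddah1 was lower in A2 HTN (-2.47, -3.98 to -1.07) and in SS HTN (-1.76, -3.14 to -0.24), and Cav1 was higher in SS HTN (1.83, 0.06 to 4.97). The tubule markers of those control cells, 8062 CPM against 437 and 863, moved with Ddah1, and their part was not tested.

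Between the models, Ddah1 was lower in the endothelial cells of A2 HTN than of SS HTN, at 22.1 against 39.4 CPM, a log2 ratio of -0.71 (-1.19 to -0.48). It was lower in both Igfbp3 classes, with -0.50 (-1.10 to -0.08) in positive and -0.75 (-1.46 to -0.31) in negative cells, while in all other cells the levels were 242 and 229 CPM (0.08, -0.10 to 0.26). Tubule markers in the endothelial cells were at 437 and 863 CPM, and their part was not tested. For Nos3, Nostrin, Cav1 and Ddah2 the ratios in all endothelial cells lay between -0.16 and -0.06. Within classes Nostrin had opposite signs, 0.50 (0.24 to 0.82) in Igfbp3-positive and -0.45 (-0.76 to -0.18) in Igfbp3-negative cells, as did Ddah2 with 0.37 (0.17 to 0.60) and -0.45 (-0.69 to -0.24). Cav1 had the reverse signs, -0.24 (-0.43 to -0.05) and 0.24 (0.05 to 0.43). Among all genes with at least 20 UMIs, Ddah1 in all endothelial cells lay at percentile 5.31 of this ratio. Nostrin lay at percentiles 92.9 and 12.4 in positive and negative cells and Ddah2 at 86.8 and 12.3. Cav1 lay at 23.8 and 77.0, next to the quartiles of all genes. Without the glomerular-like cells Nostrin was higher in A2 HTN over all endothelial cells, at 103 against 74.6 CPM (0.44, 0.25 to 0.68). Within the glomerular-like cells Nostrin was lower, at 254 against 361 CPM (-0.50, -0.99 to -0.04). Those cells were not alike in the 2 libraries. Plvap was at 472 CPM in A2 HTN and 28.3 in SS HTN, beside 2976 and 1623 in the rest. Igfbp3 was at 758 and 68.0 CPM, beside 1784 and 724 in the rest. The part of these marker differences in the Nostrin values was not tested. The glomerular-like share of endothelial cells was 4.42% in A2 HTN and 12.4% in SS HTN. Under the first rule the glomerular share was the higher one in A2 HTN, so these shares depend on the rule. The part of these opposite differences and shares in the near equality of Nostrin in all endothelial cells was not tested. None of these differences between 2 single libraries was tested.

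**Figure D5:**
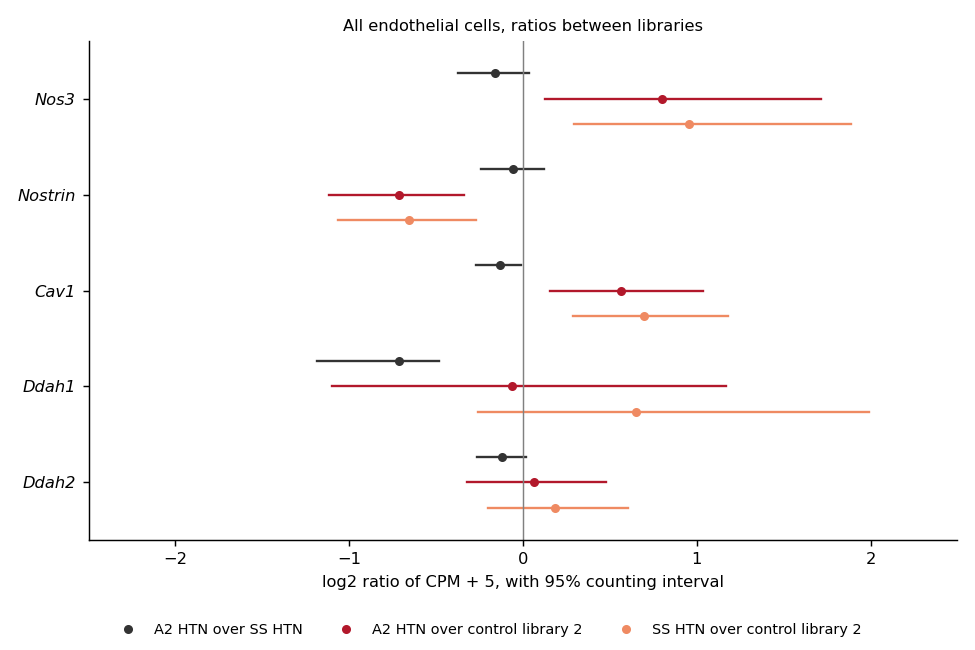
Log2 ratios of CPM + 5 between libraries in all endothelial cells, with 95% counting intervals of the ratio without the added 5: A2 HTN over SS HTN, and each over control library 2. Ddah1 lies at -0.71 between the models. Nos3 and Cav1 lie above and Nostrin below control library 2 in both models; control library 1 is left out for its 19 endothelial cells.

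In all other cells the 2 hypertension and the 2 control libraries did not overlap for any of the 5 genes, which held for 43% of all genes, and none of the 5 passed the test. Nos3, Nostrin, Cav1 and Ddah2 were the higher in hypertension and Ddah1 the lower. Nos3 gave 23.6 and 19.6 against 9.85 and 4.38 CPM (1.47, standard error 0.37, adjusted p = 0.169), Cav1 gave 42.8 and 37.6 against 9.49 and 18.2 (1.64, 0.32, 0.0784) and Ddah2 gave 28.9 and 39.6 against 3.28 and 17.5 (2.0, 0.55, 0.210), by edgeR's test with 46 of 11036 genes passing (0.417%). Nostrin gave 43.9 and 39.6 against 31 and 25.5 CPM (0.55, adjusted p = 0.389) and Ddah1 242 and 229 against 294 and 318 (-0.37, adjusted p = 0.509), by the same edgeR test. Cav1 passed without TMM scaling (adjusted p = 0.0483) and under the stricter endothelial rule (0.0475), Nos3 under the stricter rule (0.0475) and without either control library (0.0158 and 0.0426), and Cav1 and Ddah2 without control library 2 (5.95e-05 and 3.32e-06). Under the stricter rule, cells that met only the main rule counted as other cells. They numbered 150 in A2 HTN, 304 in SS HTN, 12 in control library 1 and 23 in control library 2. In A2 HTN and SS HTN they gave 97.8 and 108 CPM of Nos3 and 221 and 264 CPM of Cav1. Their part in the calls under that rule was not tested. Of the pathway list 3 of 59 genes rose and none fell: Cavin1 by 1.47, Cavin2 by 2.37 and S1pr1 by 2.10 (adjusted p = 0.0438, 0.0276 and 0.0445 in edgeR's test). No gene at all passed here without A2 HTN, without SS HTN or after thinning. The 8 endothelial markers not used by the endothelial rule summed to 2041 and 1940 CPM in these cells of A2 HTN and SS HTN, against 804 and 875 CPM in the control libraries, so they moved with these genes, and their part was not tested.

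Between the Igfbp3 classes 4 of 56 pathway genes passed edgeR's test, beside 2.26% and 3.24% of all genes. Ednrb, the endothelin B receptor that couples endothelin to nitric oxide release, was higher in positive cells by 0.62 (adjusted p = 3.71e-05). Cavin2, a caveolar coat protein, fell by 0.68, and the cyclic nucleotide phosphodiesterases Pde3a and Pde3b fell by 1.47 and 1.62 (adjusted p = 1.52e-06, 2.67e-12 and 0.00658 in edgeR's test).

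Across the 11 sums of class and library with at least 20000 UMIs, the genes whose log2 levels followed each member most closely were listed as a description. For Nos3 they were Cald1 (Pearson r = 0.99), Afap1l1 (0.98), Rps27rt (0.97), Adcy4 (0.96) and Erg (0.96). For Nostrin they were Il33, Mtch1 and Impdh1 (each 0.96), for Cav1 Aamp, Acvrl1 and St3gal1 (each 0.98), for Ddah1 Pawr, Slc16a9 and Gm10804 (each 0.99), and for Ddah2 Rpl31, Itm2c and Crip2 (each 0.99). These sums share their libraries and depth and are dominated by the gap between endothelial and other cells, and 228 of 11044 genes followed Nos3 with r over 0.9.

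Within single cells thinned to 1000 UMIs, the number of cells that held both members of a pair was set beside the product of their shares. Nos3 and Cav1 were together in 17 of 1194 A2 HTN endothelial cells, where the product gives 14.7, and in 27 of 1478 SS HTN cells, where it gives 18.5. Nos3 and Nostrin were together in 8 cells of A2 HTN and 3 of SS HTN, where the products give 8.94 and 8.88. Nos3 and Ddah1 were together in 0 and 5 cells, where the products give 2.76 and 4.76, and Cav1 and Ddah2 in 33 and 41, where they give 30.2 and 40.1. These counts are small and were not tested.

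The endothelial rule has a threshold, and the levels of members on either side of it are given once. In A2 HTN the 150 cells inside the rule but outside the stricter rule gave 97.8 CPM of Nos3, 221 of Cav1 and 58.3 of Ddah1, and the 141 cells added by the looser rule gave 42.6, 89.5 and 183 CPM. In SS HTN the 304 cells just inside gave 108, 264 and 62.7 CPM and the 191 just outside 53.8, 114 and 149 CPM. Nostrin was nearly level in A2 HTN, at 70.8 inside and 63.9 CPM outside. In control library 2 the 23 cells inside gave 18.8 CPM of Nos3 and 113 of Cav1, from 1 and 6 UMIs, and the 36 outside 104 and 130 CPM.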

How the data were processed

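The data were 4 droplet-based 3′ single-cell libraries (Chromium v3.1, per the labels' protocols), each from the pooled kidneys of 1 group. The deposited values are raw UMI counts, whole numbers for each gene in each cell. Cell Ranger 7.0.0, Seurat 4.1 and mm10 are named in the submitters' processing notes, without the step each served, and no source used here says how cells were filtered or reads assigned. The table that joins both hypertension libraries served as an alternative only. No cell was removed here and no doublets were called.

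Counts were summed per library and class and tested with edgeR 4.0.16 (quasi-likelihood, TMM, filterByExpr, Benjamini-Hochberg over all genes, threshold 0.05) in R 4.3.3. Comparisons within libraries were blocked on library. Pecam1, Cdh5, Kdr and Tie1, and Igfbp3 where it defined a class, stayed in the fits and were left out of the counts of genes tested and passed. Alternatives were DESeq2 1.42.0, no TMM, no filter, each library left out, a stricter rule (5 UMIs, 20 per 10000), a looser rule (2 UMIs, 8 per 10000), cells thinned to 1000 UMIs, cells over 1% tubule UMIs left out, and an Igfbp3 minimum of 2 UMIs. The scripts were tested on simulated data. P-values measure the spread between pooled libraries. Named genes were the 5 members, the genes most like them, and listed pathway genes past the threshold (the 8 largest where more passed). The members and lists were chosen with earlier results of these data known.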

Additional observations from a re-analysis of the deposited data

Results flagged for a closer look

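The effect of the Igfbp3 class had opposite signs in A2 HTN and SS HTN for 3 of the 5 genes and for 39.3% of all genes with at least 20 endothelial UMIs in each library, as log2 ratios of Igfbp3-positive over Igfbp3-negative endothelial cells. Nos3 gave 0.02 and -0.209, Nostrin 0.118 and -0.833, and Ddah2 0.069 and -0.756. The difference between the models was not tested, since each is 1 library, and the 4 counting intervals outside the Nostrin and Ddah2 values of SS HTN include 0.

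The other 2 nitric oxide synthases lie outside the genes shared by all library tables. Nos2, the inducible synthase, is listed in both hypertension tables. Taken over all UMIs of a class, it gave 21.4 CPM (120 UMIs, 17.8 to 25.6) in the endothelial cells of A2 HTN and 18.7 CPM (75 UMIs, 14.7 to 23.5) in those of SS HTN. Their other cells gave 3.72 and 4.06 CPM, and macrophage markers summed to 107 and 111 CPM there. Only 3 of the 7 macrophage markers are listed for these libraries, so the sums leave out the rest. Nos2 has no row in the control table, so no comparison with controls was made. Nos1, the neuronal synthase, is listed in A2 HTN alone, with 0.715 CPM (4 UMIs) in endothelial cells and 1.59 CPM (3 UMIs) in other cells, and in the endothelial cells 3 UMIs would give 0.536 CPM.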

How the results depend on the processing

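The difference between endothelial and other cells kept its direction and passed for all 5 genes in every setting run, with a log2 difference of 1.59 to 2.83 for Nos3, 1.63 to 2.16 for Nostrin, 1.95 to 3.03 for Cav1, -2.97 to -2.02 for Ddah1 and 2.14 to 3.19 for Ddah2. Over all comparisons, 368 fold changes of the 5 genes stayed on their side of the threshold in the same direction, 24 changed sign, 8 gained a call and 5 lost one, the last all being Cav1 between the Igfbp3 classes. None of the 24 that changed sign had passed. The causes were not tested except where stated. Where leaving out a library left 1 on a side, that library was assumed to vary like the others.

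Between the Igfbp3 classes, 523 genes passed, against 84 with DESeq2, 1197 under the looser endothelial rule, 216 after thinning and 119 to 552 with 1 library left out (119 without A2 HTN and 137 without SS HTN). Nos3 changed sign under the looser rule (0.013) and after thinning (0.144). With 1 library left out Nos3 ran from -0.192 to 0.012, Nostrin from -0.581 to 0.160 and Ddah2 from -0.671 to 0.005, the positive values all without SS HTN.

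Between hypertension and control libraries in all endothelial cells, 2 genes passed under the stricter rule and 9 without cells rich in tubule transcripts, against 0. Nostrin gave 0.146 under the looser rule and Ddah1 0.198 without cells rich in tubule transcripts. With 1 library left out they ran from -0.714 to 1.462 (without control library 2) and from -1.719 to 0.380 (without control library 1). In Igfbp3-positive cells the count of 2 became 6 without TMM, 1 at the higher Igfbp3 threshold, and 0 with DESeq2, with no filter, under either other endothelial rule, after thinning and with any library left out. There Ddah1 gave -0.246 and Ddah2 -0.174 after thinning, and with 1 library left out Nostrin ran from -1.054 to 10.513 and Ddah1 from -1.222 to 1.357. Folds near 10 without control library 2 set the gene against 0 UMIs in 4 cells of control library 1 and are no bound. In Igfbp3-negative cells 18 genes passed with no filter, 1 under the stricter rule, 3 after thinning, 9 without cells rich in tubule transcripts and 0 to 61 with 1 library left out (61 without control library 2). Nostrin there gave 0.032 with DESeq2, 0.447 under the looser rule and -0.373 to 1.350 with 1 library left out (above 0 without A2 HTN and without control library 2). In all other cells the count of 46 became 79 with DESeq2, 90 without TMM, 83 and 30 under the stricter and looser rules, 0 after thinning and 0 to 811 with 1 library left out (0 without A2 HTN or SS HTN, 226 without control library 1 and 811 without control library 2). For the difference between the Igfbp3 classes 2 genes passed without TMM and 0 to 3 with 1 library left out. Nos3 gave -0.135 there under the stricter rule, Nostrin 0.125 after thinning, and Ddah2 -0.124 under the looser rule and -0.569 after thinning. With 1 library left out Nostrin ran from -1.027 to 8.884 and Ddah2 from -0.327 to 8.891. Of the ratios between single libraries 218 moved by less than counting error and 7 by more, among them Nostrin in A2 HTN over SS HTN in all endothelial cells, at 0.122 after thinning.

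No paired analysis was possible because the barcode endings of the controls cannot be tied to a model, so no hypertension library has a known control partner. The number of control cells limits these comparisons: in the 19 endothelial cells of control library 1, 3 UMIs stand for 87.3 CPM.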
